A study of Mus musculus with 4 samples.

Results

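The cassette exons described here are exons that can be included in or skipped from the mRNA and whose length cannot be divided by 3, so that inclusion and skipping read the downstream codons in different frames. They were taken from the deposited table of AS events that differed between NOVA2-overexpressing and control ECs, as the rows with a length that is not a multiple of 3 in one of the 6 exon classes of vast-tools. S, C1, C2 and C3 are exons of simple to increasingly complex surroundings, MIC holds microexons, and ANN holds exons found through the annotation. In total, 260 exons in 228 genes met these criteria, of 1075 events in 869 genes. The other 289 cassette exons had lengths that keep the frame and are used here as the comparison.

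Mouse ECs were stably transduced with a lentivirus for HA-tagged human NOVA2 under the CMV promoter (pLenti-GIII-CMV human NOVA2-HA) or with the HA control vector, kept under puromycin selection and grown sparse, and RNA-seq was made from 2 libraries per group. Both groups therefore share the transduction and the selection, and NOVA2 is present above its own level through a viral promoter. Whether the 2 libraries of a group came from separate cultures is not given in the sources used here, so every spread below may be technical. The table holds no expression values, and the level of NOVA2 and the EC markers were not analysed here.

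NOVA2 is an RNA-binding protein, best known from neurons and later described in the vascular endothelium, that binds clusters of the motif YCAY (Y stands for C or T) in pre-mRNA. As a rule of NOVA biology, binding upstream of or within an exon goes with skipping, and binding in the intron downstream goes with inclusion. An exon of a length that keeps the frame adds or removes a stretch of protein, whereas a frame-shifting exon can change the end of the protein or bring in an early stop codon. An mRNA with a stop codon well upstream of its last exon junction is a usual substrate of nonsense-mediated decay, by which cells degrade such mRNAs.

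The inclusion level was measured as PSI, the percent of transcripts that include the exon, and the change as dPSI, the difference in percentage points of the group means, NOVA2-overexpressing minus control. The table had been filtered to leave more than 5 points between the nearest libraries of opposite groups, so the groups do not overlap in 100.0% of the events by construction, and the smallest gap among the frame-shifting exons was 5.02 points. With 2 libraries a group, an exact permutation test cannot go below p = 0.333, and single exons were tested by a two-sided Fisher's exact test on the reads of each group added together with p-values adjusted over all 1075 events. This test compares libraries rather than conditions, and the filter on the gap makes its p-values too small.

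Sequences that carry the results are shown first, read 5′ to 3′ on the strand of the gene from the mm9 assembly. In Dnm2, which encodes the membrane fission GTPase dynamin 2, a pair of exons of 139 nt each replaced one another, and they lay on the plus strand at chr9:21283343-21283481 and chr9:21284851-21284989. They differ at 44 of 139 bases (68.3% identical), which are in capitals.
Dnm2 exon that fell: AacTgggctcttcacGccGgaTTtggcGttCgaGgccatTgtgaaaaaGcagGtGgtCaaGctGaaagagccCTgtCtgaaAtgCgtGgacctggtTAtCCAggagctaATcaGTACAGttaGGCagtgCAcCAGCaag
Dnm2 exon that rose: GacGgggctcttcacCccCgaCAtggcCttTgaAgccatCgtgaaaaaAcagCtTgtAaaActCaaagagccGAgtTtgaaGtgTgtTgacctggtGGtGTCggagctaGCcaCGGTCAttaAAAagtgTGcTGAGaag
The largest fall with deep coverage was in Neo1, the gene of neogenin, a receptor for netrins and repulsive guidance molecules. The table gives an exon of 95 nt (capitals) that ends where an annotated exon of 159 nt on the minus strand, at chr9:58732277-58732435, also ends, and it lists both starts. The 159-nt form keeps the frame and holds 13 YCAY motifs, and 2 more stand in the last 100 nt of the intron before it, at chr9:58732436-58732535, where YCAY is in capitals.
Neo1 exon: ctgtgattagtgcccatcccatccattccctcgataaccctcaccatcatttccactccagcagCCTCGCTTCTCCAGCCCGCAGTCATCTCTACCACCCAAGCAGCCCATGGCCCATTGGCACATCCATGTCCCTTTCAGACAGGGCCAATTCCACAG
Neo1 upstream intron: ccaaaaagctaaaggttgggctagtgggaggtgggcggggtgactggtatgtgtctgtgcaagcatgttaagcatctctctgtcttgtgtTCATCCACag
The next sequences are short exons in capitals with the neighbouring bases of the introns. The Marchf7 exon of 25 nt (chr2:60085515-60085599, plus strand) rose, the Fmnl2 exon of 47 nt (chr2:52989416-52989522, plus strand) fell, and the Eef1b2 microexon of 5 nt (chr1:63224567-63224607, plus strand) carried the largest dPSI on the fewest inclusion reads.
Marchf7 microexon: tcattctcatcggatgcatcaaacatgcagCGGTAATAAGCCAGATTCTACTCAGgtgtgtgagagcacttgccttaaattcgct
Fmnl2 exon: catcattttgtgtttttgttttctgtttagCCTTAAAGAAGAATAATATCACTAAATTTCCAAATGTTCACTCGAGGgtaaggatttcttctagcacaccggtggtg
Eef1b2 microexon: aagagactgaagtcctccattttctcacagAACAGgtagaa
Eml2 shows a neighbouring pair of exons, of 98 nt at chr7:19787179-19787276 and 88 nt at chr7:19787858-19787945 on the plus strand, that each shift the frame but together add 186 nt. The motif YCAY is in capitals in both.
Eml2 exon of 98 nt: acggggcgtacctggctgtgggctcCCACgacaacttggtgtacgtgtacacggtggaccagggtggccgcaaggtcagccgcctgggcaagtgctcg
Eml2 exon of 88 nt: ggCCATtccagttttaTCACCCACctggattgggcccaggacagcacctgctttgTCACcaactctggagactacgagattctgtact
The introns of Sh2b1 and Adamts10 are shown for their YCAY clusters, again in capitals. They are 150 nt before the Sh2b1 exon (chr7:133611564-133611713) and 150 nt after it (chr7:133611314-133611463), both on the minus strand, and 150 nt before the Adamts10 exon (chr17:33680431-33680580, plus strand).
Sh2b1 upstream intron: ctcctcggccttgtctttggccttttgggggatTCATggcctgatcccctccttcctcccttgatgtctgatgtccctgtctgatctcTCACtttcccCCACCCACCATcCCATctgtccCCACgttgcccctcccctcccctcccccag
Sh2b1 downstream intron: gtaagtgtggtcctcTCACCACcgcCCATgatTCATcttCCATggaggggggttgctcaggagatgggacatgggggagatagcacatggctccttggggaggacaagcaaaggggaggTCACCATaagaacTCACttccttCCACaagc
Adamts10 upstream intron: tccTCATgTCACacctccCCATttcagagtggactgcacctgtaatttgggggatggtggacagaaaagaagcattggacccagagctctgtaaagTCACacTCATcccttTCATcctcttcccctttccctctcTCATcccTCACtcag

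Frame-shifting exons were mostly included in control ECs and mostly lower with NOVA2. Their median PSI was 85.6 and 85.0% in control replicates 1 and 2 and 79.7 and 79.9% in NOVA2-overexpressing replicates 1 and 2. Of the 260 exons, 169 (65.0%) had a lower PSI with NOVA2 and 91 a higher one, whereas 38.1% of all 1075 events were lower. Among the frame-preserving cassette exons, 60.6% were lower, so lower values were in the majority in both kinds of cassette exon. Between replicates, the median difference of a frame-shifting exon was 1.99 points in control and 2.15 points in NOVA2-overexpressing ECs.

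By Fisher's exact test, 163 exons (62.7%) passed an adjusted p of 0.05, beside 56.0% of all events and 76.8% of the frame-preserving exons. Of the 260 exons, 107 passed and fell and 56 passed and rose. Of all 1075 events, 274 (25.5%) passed and fell and 328 (30.5%) passed and rose. The corrected reads of vast-tools count both junctions of an included exon and so exceed the number of independent reads. With the plain junction reads, the mean of both inclusion junctions is set against the skipping junction. The correction also changes the ratio of inclusion to skipping reads in some exons, so their plain and corrected dPSI values are not on one scale. By these reads 80 exons passed (30.8%, 50 lower and 30 higher), beside 44.4% of all cassette exons and 56.7% of the frame-preserving exons. Over all events 39.2% passed, where retained introns and alternative splice sites kept their corrected reads. A dPSI of at least 10 points in either direction was reached by 125 exons in 114 genes (48.1%), beside 53.1% of all events. Of the 260 exons, 81 were lower and 44 higher by this measure. Of all 1075 events, 216 (20.1%) were lower and 355 (33.0%) higher by it. Without control replicate 1 or control replicate 2, 121 and 116 exons reached 10 points. Without NOVA2-overexpressing replicate 1 or NOVA2-overexpressing replicate 2, 112 and 118 did. Fewer exons passed Fisher's exact test with any library left out, and the part of the lower number of reads in this was not tested. Both criteria together were met by 94 exons (36.2%), 62 lower and 32 higher, beside 35.0% of all events and 49.1% of the frame-preserving exons.

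The median absolute dPSI was 9.77 points for the frame-shifting exons, 10.9 for the frame-preserving exons and 10.3 for all events. Frame-shifting exons were also measured on fewer reads, with a median of 49 reads in the least covered library beside 94 for the frame-preserving exons, and 58 of them had the lowest usable score (VLOW) in at least 1 library. The part of this difference in depth in the lower called share of the frame-shifting exons was not tested. At the threshold of 10 points, Rbks (9.91) and Hdac4 (-9.92) were the closest exons below it, and Gm5595 (10.1) and Wbp1 (-10.1) the closest above it.

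**Figure D1:**
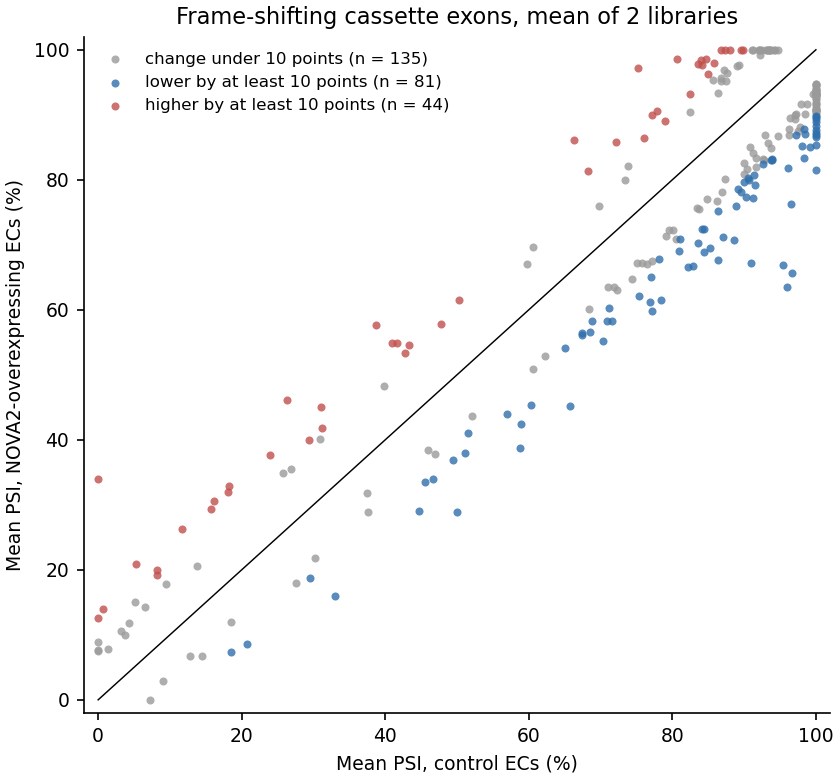
Mean PSI of the 260 frame-shifting exons in control (x axis, %) and NOVA2-overexpressing ECs (y axis, %), each the mean of 2 libraries, with the diagonal of no change. The band without points along the diagonal comes from the filter of the table, and 81 exons lie at least 10 points below the diagonal and 44 at least 10 points above it.

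The direction of the change went with the inclusion level in control ECs. Of 28 exons with a mean control PSI under 20%, 22 were higher and 6 lower with NOVA2, and their median PSI was 5.70 and 9.29% in the control libraries and 13.98 and 12.96% in the NOVA2-overexpressing libraries. Fisher's exact test passed 8 of these 28 (28.6%, 7 rose and 1 fell), with a median of 24.5 reads in the least covered library. Of 79 exons between 20 and 80%, 29 were higher and 50 lower, and 49 (62.0%) passed (32 fell and 17 rose). Of 153 exons over 80%, 40 were higher and 113 lower, and 106 of the 153 (69.3%) passed (74 fell and 32 rose). These shares stand beside 62.7% of all frame-shifting exons and 56.0% of all events. The control PSI sets the bin and also enters the dPSI. The part of this, and of the limits of PSI at 0 and 100%, in the order was not tested. The frame-preserving exons had the same order, with 31 of 37 higher under 20% and 110 of 144 lower over 80%. In control ECs 41 frame-shifting exons were included in every read of both libraries, and 21 were so in NOVA2-overexpressing ECs. Of the 41, 24 had a score of VLOW, and the control libraries held fewer reads per frame-shifting exon (medians of 51 and 65, beside 80.5 and 75.5), so a full PSI needs fewer reads there. The part of depth in the 2 counts was not tested.

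The exons measured 5 to 2746 nt, and 132 left a remainder of 1 and 128 a remainder of 2 when divided by 3. The 2 remainders had 64.4 and 65.6% of lower exons. The share of lower exons was 40.0% of 5 exons up to 27 nt, 54.2% of 24 exons of 28 to 60 nt, 64.5% of 76 exons over 60 and up to 100 nt, 66.7% of 120 exons over 100 and up to 200 nt, and 71.4% of 35 longer exons. The frame-preserving exons had no such order, with 65.2, 55.2, 60, 66.0 and 51.7% from the shortest to the longest bin, and no trend was tested. The 5 shortest exons stood out by their low inclusion, with a median control PSI of 5.27%, beside 90.0% for the exons over 100 and up to 200 nt. The median absolute dPSI stayed between 9.63 and 9.94 points in the 4 bins over 27 nt.

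Among the classes, S was the largest with 127 exons, of which 85 were lower. Fisher's exact test passed 81 of the 127 (63.8%, 57 fell and 24 rose), beside 62.7% of all frame-shifting exons and 56.0% of all events. C1 had 25 lower of 35, C2 had 19 of 29, C3 had 21 of 35 and ANN had 18 of 32. C1 exons had the lowest median control PSI of these, 67.4%, and ANN exons the highest, 91.6%. ANN was the single class of more than 2 exons in which more exons were higher (10) than lower (5) by at least 10 points. Of these 10, 8 lay in 4 genes (Tmc8, Galnt2, Anubl1 and Dnm2), where the exons of Tmc8 and of Galnt2 had nearly equal skipping reads. The frame-preserving ANN exons also had 11 higher and 3 lower by this measure. MIC held only 2 frame-shifting exons, Eef1b2 and Nxt1, whereas 10 microexons kept the frame.

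**Figure D2:**
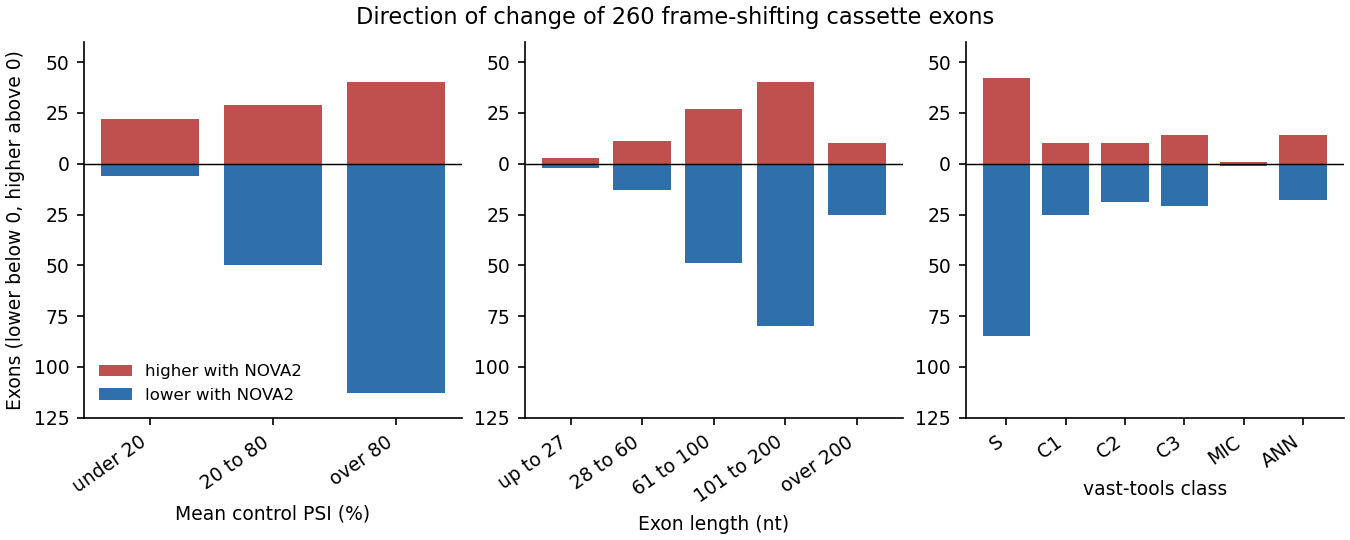
Number of frame-shifting exons with a higher (above 0) or lower (below 0) PSI with NOVA2, by mean control PSI, exon length and vast-tools class (y axis, exons). Lower exons outnumber higher ones in every bin except the 28 exons under 20% control PSI, where 22 were higher, the 5 exons up to 27 nt, where 3 were higher, and MIC with 1 of each.

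The 6 largest decreases among exons that passed Fisher's exact test and were scored above VLOW throughout began with Neo1. Its PSI was 96.6 and 96.6% in the control libraries and 67.7 and 63.7% with NOVA2, a dPSI of -30.9 on at least 934 reads a library (adjusted p = 6.07e-185 by Fisher's exact test). Adamts10, which encodes a secreted metalloprotease of the microfibril matrix, had 89.8 and 92.1% in control and 66.2 and 68.2% with NOVA2 for an exon of 146 nt. The dPSI of Adamts10 was -23.8 (adjusted p = 2.16e-08, Fisher's exact test). In both genes the replicates lay close together beside the distance of the groups, with SDs of 0.01 and 2.88 points in Neo1 and 1.58 and 1.40 points in Adamts10.

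Eml2 encodes a microtubule-associated protein, and its exon of 98 nt fell from 68.1 and 63.4% to 44.3 and 45.9% (adjusted p = 2.13e-05, Fisher's exact test). Fmnl2, a formin that elongates actin filaments, lost inclusion of its exon of 47 nt from 85.5 and 87.3% to 67.8 and 67.4%. Lrrcc1, a centriole protein, included its exon of 206 nt in all reads of both control libraries and in 83.9 and 79.2% with NOVA2. Its control libraries held 51 and 86 corrected reads, which allow up to 5.88 and 3.49% skipping. Their plain inclusion reads were 25.5 and 43.0, so the limits on plain reads are wider. Mtrr encodes the reductase that keeps methionine synthase active, and its exon of 608 nt had 42.7 and 57.4% in control and 20.3 and 37.5% with NOVA2. The replicates of Mtrr differed by SDs of 10.4 and 12.2 points, and its dPSI of -21.1 became -6.26 with plain junction reads (adjusted p = 0.47 by Fisher's exact test). The plain control reads of Mtrr, 4.0 and 6.5 for inclusion against 21 and 25 for skipping, stand for less inclusion than its PSI. Outside these exons, and chosen after its values were seen, the receptor kinase gene Lmtk3 had the largest decrease, with 92.0 and 100% in control and 54.7 and 72.2% with NOVA2 on at least 18 reads a library.

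The largest increase was in Eef1b2, a subunit of the exchange factor of translation elongation, and it rests on almost no reads. The 5-nt microexon had a PSI of 0% in both control libraries, on 35 and 24 skipping reads, and of 38.7 and 29.4% with NOVA2. The NOVA2-overexpressing libraries held 2 and 1 inclusion reads before the correction, against 37 and 28 skipping reads, which gives a dPSI of 4.41 and an adjusted p of 0.278 by Fisher's exact test. Since single reads weigh this much after the correction, the 0% in control sets no close upper limit. St6galnac6, a sialyltransferase, had 32.6 and 20% in control and 46.7 and 45.4% with NOVA2 for an exon of 55 nt. Its dPSI of 19.8 was 7.43 with plain reads and did not pass there either (adjusted p = 0.296, Fisher's exact test).

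The other 4 increases passed with both kinds of reads. Klf11, a zinc finger transcription factor, gained inclusion of an exon of 934 nt, from 80 and 81.3% to 97.1 and 100%. Marchf7, a ubiquitin ligase whose symbol the table shows as a date, included its 25-nt exon at 6.39 and 4.14% in control and at 20.8 and 21.0% with NOVA2 (adjusted p = 1.87e-07, Fisher's exact test, on at least 122 reads a library). Cyld, a deubiquitinase of NF-κB signalling, raised an exon of 127 nt in its untranslated first part from 15.8 and 20.7% to 30 and 35.7%. Tmc8, a transmembrane channel-like protein, raised an exon of 98 nt from 85.4 and 82.7% to 100 and 96.9%. In each of the 4 genes, the replicates lay closer together than the groups. The Cyld call was lost without control replicate 1 or NOVA2-overexpressing replicate 2 (adjusted p = 0.118 and 0.105, Fisher's exact test).

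**Figure D3:**
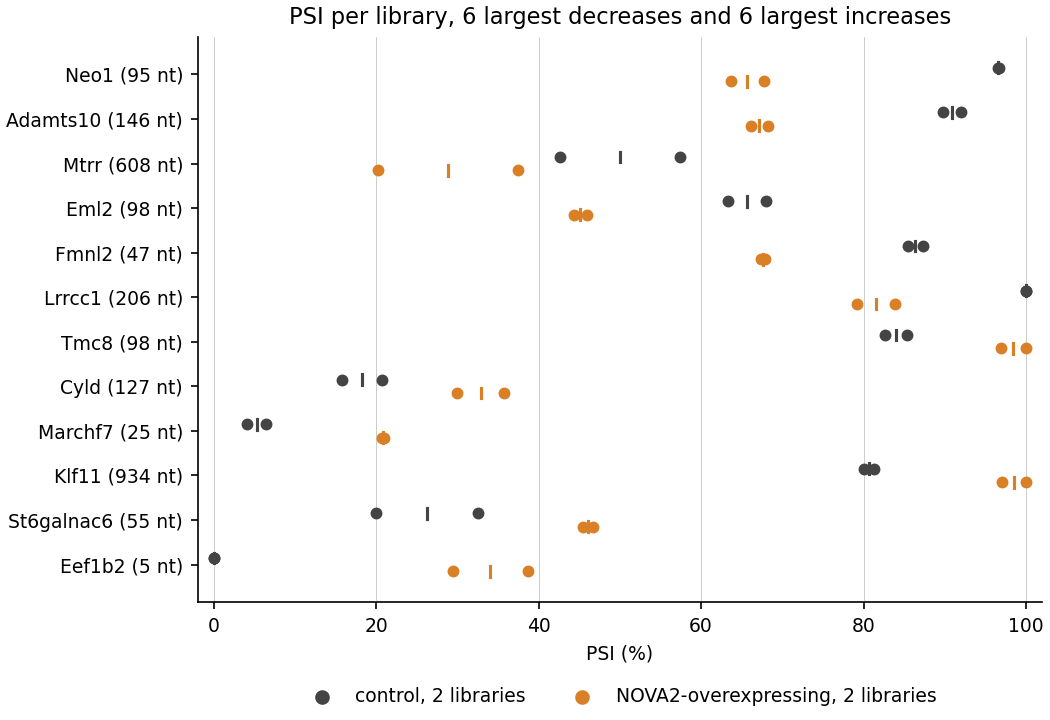
PSI (x axis, %) per library for the 6 largest decreases and the 6 largest increases among frame-shifting exons that passed Fisher's exact test and were scored above VLOW in each library. Points are the 2 libraries of a group and short bars their mean, with control above NOVA2-overexpressing for each exon. The groups lie apart in all 12, as in 100.0% of all events by the filter of the table. The widest replicate spread is in Mtrr.

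Among the 79 exons that moved by at least 10 points, passed the test and were scored above VLOW, Neo1, Dnm2 and Sh2b1 had the most reads in their least covered library. The upstream Dnm2 exon had 84.3 and 86.1% in control and 69.7 and 69.2% with NOVA2 (adjusted p = 1.06e-19, Fisher's exact test, on at least 527 reads a library). The downstream exon moved the opposite way, from 15.1 and 16.4% to 29.6 and 29.0% (adjusted p = 9.08e-13, Fisher's exact test). Both means added up to about the whole in each group, with 85.2 and 15.8% in control and 69.5 and 29.3% with NOVA2. Sh2b1 encodes an adaptor of receptor tyrosine kinases with several protein ends, and its 100-nt exon had 60.1 and 60.5% in control and 45.3 and 45.4% with NOVA2. Mpzl1, a surface protein that binds the phosphatase SHP-2, had 77.3 and 79.4% in control and 62.7 and 60.2% with NOVA2 for an exon of 106 nt. The dPSI of these 4 exons in 3 genes ranged from 13.5 to 16.9 points in size, and the SDs within groups from 0.04 to 1.82 points.

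The question of which form keeps the protein was addressed by placing the exons on the GENCODE annotation of the same assembly. Of the 260 exons, 215 (82.7%) were annotated, 257 followed an AG, and 256 preceded a GT and 4 a GC. For 233 exons a complete coding transcript was found, and 175 of these gave the same outcome in every transcript. In 137 exons (52.7%), skipping brought a stop codon more than 50 nt before the last exon junction. In 27 exons inclusion did so, and in 37 the frame changed but the new stop lay later. A further 21 exons lay before the start codon, 11 held the start or stop codon, and 27 could not be placed. These outcomes are predictions from sequence for the loss or gain of a single exon, and no decay was measured. Both Dnm2 exons are among the 137, although a transcript that exchanges one for the other, of equal length, keeps the frame.

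Of the 137 exons whose skipping predicts an early stop, 91 were lower and 46 higher with NOVA2. Fisher's exact test passed 66.4% of the 137, beside 62.7% of all frame-shifting exons and 56.0% of all events, and 57 fell and 34 rose. By at least 10 points, 42 were lower and 21 higher. The median of their mean PSI was 90.9% in control and 86.9% with NOVA2, and the altered protein had a median of 36.6% of the codons of the annotated one. Of the 27 exons whose inclusion predicts an early stop, 15 were lower and 12 higher. Fisher's exact test passed only 10 of the 27 (37.0%), of which 9 fell and 1 rose. Over both groups, 103 of 164 exons (62.8%) moved toward the form with the early stop and 61 toward the form with the full frame, and at 10 points these numbers were 46 and 31. The share of lower exons was 66.4% where skipping and 55.6% where inclusion brings the stop, both beside 65.0% of all frame-shifting exons.

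Adamts10, Eml2 and Lrrcc1 led the first group. Skipping of the Adamts10 exon left 550 of 1104 codons, skipping of the 98-nt Eml2 exon left 697 of 841, and skipping of the Lrrcc1 exon left 31 of 1031. In the second group, Dzip1, a zinc finger protein of the cilium base, had 37.8 and 28.1% in control and 13.3 and 18.6% with NOVA2 for an exon of 98 nt. Its inclusion left 215 of 852 codons. Serp2, a small protein of the endoplasmic reticulum, had 84.4 and 84.4% in control and 69.7 and 68.2% with NOVA2 for an exon of 149 nt, on 35 reads in each control library. The annotated coding transcripts of Serp2 differed in the form they hold or in the outcome. The Serp2 call (adjusted p = 0.04) was lost with plain reads (0.127) and without any 1 of the 4 libraries (0.0888 to 0.127), and the Dzip1 call without control replicate 1 or NOVA2-overexpressing replicate 1 (0.118 and 0.074, all Fisher's exact test).

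Neo1 also counts in the second group by the 95-nt exon of the table, whose inclusion predicts an early stop. The annotated exon of 159 nt adds in-frame codons, and 14 of the 260 exons similarly have listed boundaries that allow a multiple of 3. Bag6, a chaperone of the BAG family, was the deepest of these, with 68.7 and 68.1% in control and 61.03 and 59.2% with NOVA2 for an exon of 46 nt on at least 1263 reads. Baiap2, an actin regulator, had 15.4 and 12.2% in control and 20.6 and 20.7% with NOVA2 for an exon of 44 nt. Both were chosen after their values were seen, and both passed Fisher's exact test, with adjusted p = 4.10e-11 and 5.93e-04. For these 14 exons the label frame-shifting depends on the boundary used.

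Where the frame changed without an early stop, 24 of 37 exons were lower. Fisher's exact test passed 28 of the 37 (75.7%, 19 fell and 9 rose), beside 62.7% of all frame-shifting exons. The protein end differed in length in the leading cases. Skipping of the Mpzl1 exon gave 209 codons in place of 270, and skipping of the Klf11 exon gave 147 in place of 502. Inclusion of the Fmnl2 exon gave 1083 codons in place of 1091, inclusion of the Sh2b1 exon gave 682 in place of 724, and inclusion of the Marchf7 exon gave 699 in place of 693. Each count is set against the longest annotated coding sequence, which in Fmnl2 skips an exon that control ECs mostly included. The annotated coding transcripts of Mpzl1, Fmnl2 and Sh2b1 differed in the form they hold or in the outcome. Fmnl2, Mpzl1 and Sh2b1 fell, whereas Klf11 and Marchf7 rose.

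Exons before the start codon or with a start or stop codon moved as well. Srr, the serine racemase, had 79.3 and 75.1% in control and 62.2 and 57.5% with NOVA2 for an exon of 226 nt ahead of the start codon. Gpr19, an orphan receptor, had 62.3 and 55.6% in control and 38.6 and 46.3% with NOVA2 for an exon of 46 nt. Ncdn, the neuronal protein neurochondrin, had 71.1 and 72.1% in control and 55.2 and 61.2% with NOVA2 for a 70-nt exon with the start codon. In the same group, Zfp644, a zinc finger protein, had 72.9 and 63.6% in control and 80.1 and 82.7% with NOVA2, a dPSI of 13.2 that was 8.10 with plain reads. Raet1c, a ligand of an activating receptor of natural killer cells, was not placed and had 81.0 and 84.9% in control and 70.5 and 63.0% with NOVA2. Of these 5 exons, Srr and Ncdn passed also with plain reads (adjusted p = 0.00365 and 0.0111, Fisher's exact test).

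**Figure D4:**
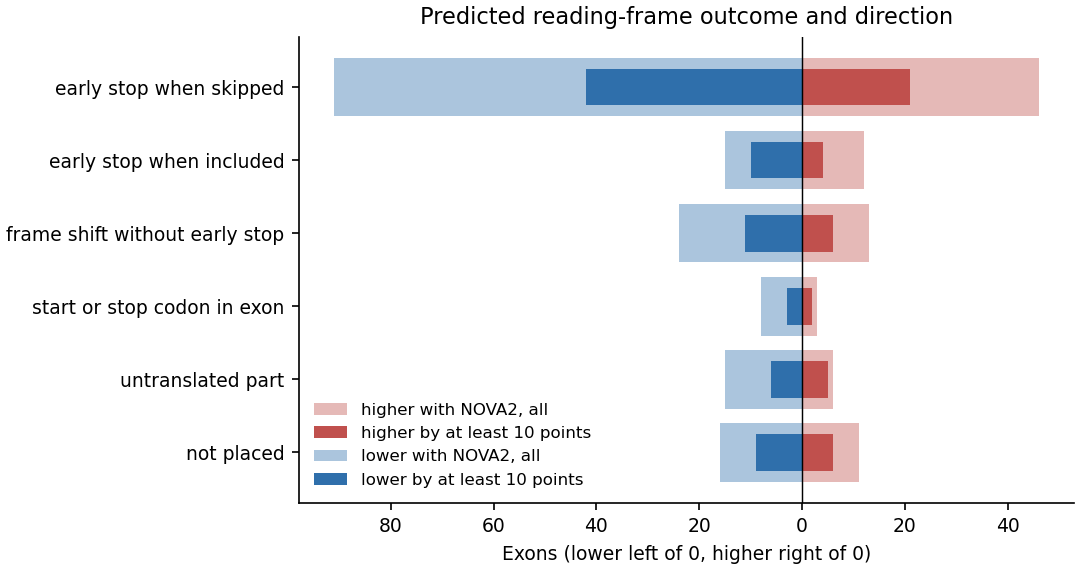
Number of frame-shifting exons (x axis) lower (left of 0) or higher (right of 0) with NOVA2 for each predicted reading-frame outcome, with those of at least 10 points in full colour. Exons whose skipping predicts an early stop form the largest group, with 91 lower and 46 higher.

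Several genes held more than 1 frame-shifting exon. In 27 genes with 59 such exons, all exons of a gene moved the same way in 16 genes and in opposite ways in 11. In 12 genes the exons were direct neighbours in an annotated transcript, and in 9 of these they moved the same way. In 7 of the 9 genes the lengths added up to a multiple of 3, beside 56.3% of the 58114 neighbouring pairs of frame-shifting coding exons in the annotation. Exons of one gene share reads and transcripts, so these counts are a description.

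Tmc8 held the most frame-shifting exons of a gene, 5, and Cyld and Slc35a5 held 3 each. In Cyld, exons of 380 and 166 nt fell from 89.2 and 93.4% to 81.2 and 80.4% and from 90.6 and 92.8% to 81.7 and 82.2%. The skipping junction in the table spans both exons, the skipping reads of the pair differed by 1 read at most in each library, and the 546 nt together keep the frame. In Tmc8, 4 neighbouring exons of 124, 98, 184 and 131 nt were higher by 12.2 to 14.4 points. They add up to 537 nt, a multiple of 3, and each had 3 to 6 skipping reads in control and 0 or 1 with NOVA2. Another Tmc8 exon, of 83 nt, was lower, from 100 and 97.0% to 90.4 and 89.7%, and did not pass with plain reads (adjusted p = 0.0669, Fisher's exact test).

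Eml2 and Galnt2 moved in pairs on more reads. The Eml2 exon of 88 nt fell from 79.4 and 74.6% to 62.4 and 67.8%, beside the fall of the 98-nt exon, and its skipping junction removes both. The call of the 88-nt exon was lost without control replicate 1 or NOVA2-overexpressing replicate 1 (adjusted p = 0.0707 and 0.112, Fisher's exact test). In Galnt2, which starts mucin-type O-glycosylation, exons of 94 and 68 nt rose from 45.4 and 40.1% to 55.7 and 51.1% and from 41.1 and 42.2% to 58.7 and 51.0%. The 2 Galnt2 exons lie 28540 nt apart, yet their skipping reads differed by 1 read at most in each library, and the same skipping reads counted for both exons cannot be told apart from separate ones in the table. Both exons were of the class ANN. Their lengths add up to 162 nt, a multiple of 3, but they are not neighbours in an annotated transcript.

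In other genes the exons moved apart. Stoml1, a stomatin-like membrane protein, had 88.5 and 86.3% in control and 100% in both NOVA2-overexpressing libraries for an exon of 107 nt, and 54.5 and 63.1% against 34.9 and 42.5% for one of 280 nt. St6galnac6 had a second exon, of 91 nt, with 100 and 92.2% in control and 80 and 83.6% with NOVA2, opposite to its 55-nt exon. Ppp1r9a, the actin-binding protein neurabin, had 92.9 and 83.3% in control and 100% in both NOVA2-overexpressing libraries for an exon of 121 nt. Its exon of 199 nt had 90.4 and 92.2% in control and 75.4 and 79.1% with NOVA2 and did not pass (adjusted p = 0.0996, Fisher's exact test). With plain reads, the 121-nt Ppp1r9a exon, the 280-nt Stoml1 exon and the 91-nt St6galnac6 exon did not pass either (adjusted p = 0.0723, 0.0776 and 0.12, Fisher's exact test). The zinc finger gene Anubl1 had dPSI values of 13.9 and 19.0 for exons of 76 and 68 nt, and neither passed (adjusted p = 0.144 and 0.0593, Fisher's exact test).

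In 18 of the 137 exons whose own skipping predicts an early stop, the skipping junction given in the table removes further annotated exons and thereby keeps the frame, as in Cyld and Eml2. Of these, 12 were lower and 6 higher. With the junction as listed, 110 exons kept the prediction of an early stop, 71 lower and 39 higher.

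The functional groups were lists of gene symbols, read beside 62.7% called of all frame-shifting exons and 56.0% of all events. Transporters, receptors and adhesion molecules were the largest list with 35 exons, of which 13 fell and 9 rose by Fisher's exact test, among them Neo1. Of 26 exons in transcription and chromatin genes, 10 rose and 7 fell, led by Klf11. Of 18 exons in genes of glycosylation and metabolism, 13 fell and 3 rose, led by Mtrr, and this list also had 88.0% called over all its events. Of 14 exons in cytoskeletal genes, 8 fell and 3 rose, with a median dPSI of -12.4 led by Eml2. With plain reads the passed exons of these 4 lists numbered 12 of 35, 7 of 26, 6 of 18 and 7 of 14. Beside them stand 30.8% of all frame-shifting exons and 44.4% of all cassette exons. The median absolute dPSI of these 4 lists was 10.5, 9.50, 11.9 and 13.2 points, beside 10.3 for all events.

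The other lists were small. Of 13 exons in the ubiquitin system, 4 fell and 3 rose, and Ube2l3, a ubiquitin-conjugating enzyme, had 46.2 and 43.1% in control and 27.7 and 30.3% with NOVA2 for a 146-nt exon. Of 12 exons in kinase and phosphatase genes, 7 fell and 3 rose, and Fer, a tyrosine kinase at cell contacts, had 26.0 and 15.6% in control and 8.33 and 8.82% with NOVA2. Of 8 exons in genes of RNA processing and translation, 3 fell and 2 rose, with Eef1b2 first. Of 6 exons in DNA repair genes, 4 rose and 2 fell, and Neil1, a glycosylase of base excision repair, had 87.4 and 77.0% in control and 63.9 and 69.3% with NOVA2. Of 5 exons in regulators of small GTPases, 3 rose and 1 fell, and Tiam1, an activator of Rac, had 82.8 and 85.9% in control and 69.7 and 75.1% with NOVA2. With plain reads 4 of 13, 3 of 12, 3 of 8, 1 of 6 and 1 of 5 exons of these lists passed. Ube2l3, Fer, Neil1 and Tiam1 passed with corrected reads and not with plain reads.

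The motif YCAY, a pyrimidine (C or T) on either side of CA, was counted on the strand of the gene, overlapping matches included, in up to 200 nt of intron on either side of the exon. Among frame-shifting exons lower by at least 10 points, the upstream intron held 2.16 ± 1.43 motifs per 100 nt (SD over 81 exons), and among those higher by at least 10 points 1.58 ± 1.00 (44 exons). The exons themselves held 2.18 ± 1.78 and 1.40 ± 1.25. In the downstream intron the order was the opposite, with 1.54 ± 1.22 for lower and 2.01 ± 1.22 for higher exons. This downstream order depended on the exons taken. Over all frame-shifting exons the downstream densities were 1.63 for lower and 1.72 for higher ones. Among those that passed Fisher's exact test they were 1.73 and 1.66. The differences are smaller than the SD over exons, and exons are not replicates, so no test was made. A single motif is common, since 94.5% of the upstream windows and 94.5% of the downstream windows of all 549 cassette exons held one.

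At least 4 motifs in the upstream window were found in 44 of 81 lower exons (54.3%) and 19 of 44 higher exons (43.2%), beside 43.9% of all cassette exons. For frame-preserving exons the upstream density was 2.55 and 1.57 per 100 nt for lower and higher exons, and the downstream density was 1.76 and 1.97. The control motif YGAY, with GA in place of CA, had upstream densities of 0.78 and 0.84 for lower and higher frame-shifting exons. Among the exons shown above, Sh2b1 had 12 YCAY upstream and 11 downstream, Neo1 had 11 upstream, partly within the longer annotated exon, and Adamts10 had 8 upstream. The falling Eml2 exon of 98 nt had the opposite order, with 3 upstream and 8 downstream, and the Eml2 exon of 88 nt had 7 and 0. Fmnl2 had 4 upstream and 3 downstream. Among those that rose, Cyld had 9 downstream of its 127-nt exon and 2 upstream, and the rising Dnm2 exon had 6 downstream and 1 upstream, whereas the 98-nt Tmc8 exon had 4 downstream and 7 upstream. Eef1b2 had 7 downstream and 5 upstream. The falling Dnm2 exon had 3 on either side, and Marchf7 likewise had 3 and 3.

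**Figure D5:**
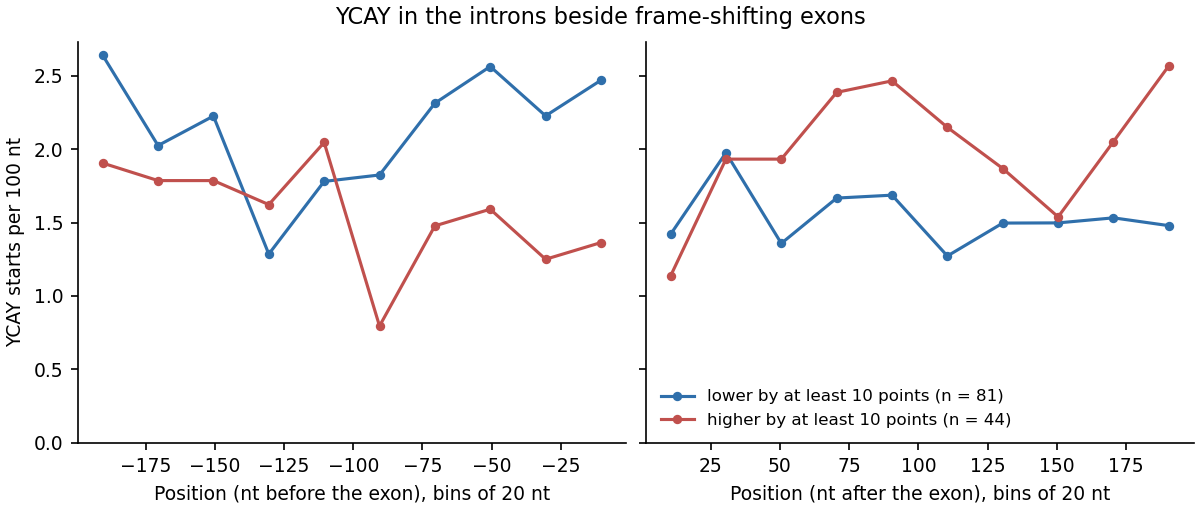
YCAY starts per 100 nt (y axis) in bins of 20 nt before (left) and after (right) frame-shifting exons that were lower (n = 81) or higher (n = 44) by at least 10 points. The line of lower exons lies above that of higher exons in the last 100 nt before the exon, and below it in most bins after the exon.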

How the data were processed

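RNA-seq was measured in 4 libraries of mouse ECs, 2 with the HA control vector and 2 with HA-tagged NOVA2. Splicing was quantified by the authors with vast-tools, whose version is not given in the sources used here, and the submitters' processing notes name mm9. The deposited PSI values are percent inclusion per event and library, with a coverage score and corrected reads. The deposited rows hold only events that passed the filter of the authors on the distance between groups. The dPSI column of the authors holds their own comparison and was not used, nor were 12 columns of samples outside the comparison and 4 columns of merged replicates.

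For each event, the inclusion and exclusion reads of the 2 libraries of a group were added and rounded, tested by Fisher's exact test in scipy 1.17.1, and adjusted by Benjamini-Hochberg over all 1075 events (called at an adjusted p under 0.05). The corrected reads are not raw counts, and so the test was repeated for the cassette exons with junction reads before correction. Events of other classes kept their corrected reads in that adjustment. The limits given for a PSI of 100% are 3 reads of the corrected total and cover counting error only. They are too narrow, because the corrected reads exceed the independent reads. The corrected reads behind all events summed to 124374 and 155864 in the control libraries and to 193436 and 182795 in the NOVA2-overexpressing libraries, so the control values are the less precise.

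Exons were placed on GENCODE vM1, whose build is that of the table. The coding transcript with the longest coding sequence was translated with and without the exon, and a stop was called early when it ended more than 50 nt before the last junction. Values were computed in Python 3.11.15 with pandas 2.3.3, numpy 2.4.6 and statsmodels 0.14.6, sequences were read with pysam 0.24.0, and plots were drawn with matplotlib 3.10.9. limma 3.58.1 in R 4.3.3, a quasi-binomial regression and the Cochran-Mantel-Haenszel test were alternatives, and the tests on reads were first run on simulated data.

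The exons named were taken from those with 10 points or more of dPSI in either direction that passed Fisher's exact test and were scored above VLOW throughout (79 exons). They are the 6 largest increases and 6 largest decreases, the largest dPSI in each class, length bin, bin of control PSI and gene list, the 3 with the most reads, the 3 largest of each reading-frame outcome, and all members in a gene with 2 or more past 10 points. Other exons were picked with their values in view, and the text says so, or stand next to a threshold or belong to a count of a few. The exons, the gene lists and the rules were chosen with earlier results of these data known. Of the alternatives tried, 47 were listed in advance and 4 were added after the data were seen.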

Additional observations from a re-analysis of the deposited data

How the results depend on the processing

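Fisher's exact test passed 163 frame-shifting exons. The number stayed within 1.5 times of this under 10 alternatives, namely limma with a pseudocount of 0.5 (240) or 1 (slightly fewer), limma with the replicate block (225), the Cochran-Mantel-Haenszel test with the replicate block (163), a score of LOW or better (148) or OK or better (125), balanced junctions only (152), the event with the most reads per gene (132), and, added after the data were seen, without exons whose boundaries allow a multiple of 3 (153), besides the data without NOVA2-overexpressing replicate 2 (117). It was 80 with plain junction reads and 1 with quasi-binomial regression, which has 2 residual degrees of freedom and had 89 exons at an unadjusted p under 0.05. Leaving out 1 library gave 80 to 117. Of all 1075 events, limma passed 954 with a pseudocount of 0.5, 936 with 1 and 863 with the replicate block. The Cochran-Mantel-Haenszel test passed 593 of all events and quasi-binomial regression 5, beside 602 by Fisher's exact test. Whether replicates of the same number share a batch is not given in the sources used here. The replicate differences of both groups had a correlation of 0.00386 over all events and 0.0871 over the frame-shifting exons. These rows were kept for a gap between the groups, so the correlations cannot decide whether a batch is shared. Without the block limma passed 240 exons, and with it 225. A dPSI of at least 10 points was reached by 125 exons, by 30 at 15 points, by 260 at 5 points (fixed by the filter of the table), by 70 of the exons scored OK or better, and by 112 to 121 without 1 library. Lower exons outnumbered higher ones under all of these alternatives, and the single exon passed by quasi-binomial regression was lower. The median absolute dPSI moved between 9.41 and 9.75 points. An early stop on skipping was predicted for 137 exons and for 91 of those that passed Fisher's exact test, and the other alternatives gave 108 to 140. The upstream YCAY density of lower exons was 2.16 per 100 nt and ranged from 1.89 to 2.28, beside 0.78 for YGAY.

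Of the 43 named exons, 40 passed Fisher's exact test. No direction changed with plain junction reads or limma, where the filter of the table leaves little room for a change. The other alternatives could not change one, since the filter keeps the groups apart or the same dPSI was used. With plain junction reads 15 of the 40 no longer passed, and with quasi-binomial regression 39 did not. Leaving out a library lost 5 to 14 calls. In all, 22 calls were lost in neither way and 18 in at least 1, of which 17 were lost without some library (Raet1c, Serp2, Ube2l3, Fer, Gpr19, Mtrr, Neil1, Tiam1, Zfp644, both St6galnac6 exons, and 1 exon each of Cyld, Dzip1, Eml2, Ppp1r9a, Stoml1 and Tmc8) and 1, Eef1b2, with plain reads alone. The Cochran-Mantel-Haenszel test with the replicate block lost 1 and gained 1, limma lost 1 and gained 3, and limma with the block lost 2 and gained 3. Coverage limits the comparison, and 58 exons had a score of VLOW in a library.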
